A study of Mus musculus with 8 samples.

Results

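The genes described here are 8 genes of major histocompatibility complex (MHC) class II antigen presentation, chosen by name from the 56980 genes counted in mouse regulatory T cells (Tregs). They are H2-Aa, H2-Ab1, H2-Eb1, H2-DMa, H2-DMb1, Cd74, Ciita and Ctss, and each was matched to the count table by its Ensembl identifier. Tregs were sorted by flow cytometry from the peripheral blood of male C57BL/6j mice, bought at 8 weeks of age. The HADA group (high altitude de-acclimatization) lived for 28 days in a hypobaric chamber set to an altitude of 6000 m and was then moved to normoxia, and the control group stayed in normoxia throughout. Each group had 4 libraries, made with a kit for low cell input. Neither the day of sorting for these libraries nor the number of mice behind each library is stated in the sources used here, so p-values measure the spread between libraries, which may in part be technical.

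Class II molecules are pairs of an alpha and a beta chain that display peptides from taken-up proteins to CD4+ T cells. The chains are assembled in the endoplasmic reticulum on the invariant chain (Cd74), which cathepsin S (Ctss) cuts down to a short peptide in the endosome, and the H2-DM pair then exchanges that peptide for an antigen. The transactivator Ciita switches on the genes of the class II chains and Cd74 through promoters that share an X box and a Y box. B cells, dendritic cells and macrophages make class II molecules at all times, whereas mouse T cells make little of their own. In C57BL/6 mice H2-Ea is defective, so that the I-E pair is not made although its beta chain gene H2-Eb1 is transcribed, and I-A (H2-Aa with H2-Ab1) is the class II molecule at the cell surface.

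RefSeq promoters (build GRCm38.p6) were found for 5 of the 8 genes, namely H2-Aa, H2-Eb1, H2-DMa with 2 start sites, H2-DMb1 and Ctss. They were searched over the 250 bases before the start, on the gene's strand, for the letters GNAAC followed after 24 to 30 bases by GATTGG, the core of the Y box. This pair of motifs was present before H2-Aa, H2-Eb1 and H2-DMb1 and before neither H2-DMa start nor Ctss. Searched on either strand, 0.396% of the 32851 promoters in the table held it. By itself GATTGG, read on either strand, was in 14.6% of them. The first motif lay 81, 91 and 94 bases before the start and the Y box core 49, 60 and 62 bases before it, with 27, 26 and 27 bases between them. The pair was also found before H2-Eb2, H2-Oa and H2-Ob, with 26, 27 and 24 bases between its motifs, and not before H2-DMb2. For H2-DMa only the 2 listed starts were searched, after stretches that end at chr17:34122831 and chr17:34125517. Any other start of H2-DMa was not searched, and which start these cells used was not tested. The 150 bases before the start are shown 5′ to 3′ for the 3 genes with the pair, whose letters are in capitals, and for Ctss, which lacks it. They cover chr17:34287824-34287973 (minus strand) for H2-Aa, chr17:34305717-34305866 (plus) for H2-Eb1, chr17:34153041-34153190 (plus) for H2-DMb1 and chr3:95526636-95526785 (plus) for Ctss.
H2-Aa: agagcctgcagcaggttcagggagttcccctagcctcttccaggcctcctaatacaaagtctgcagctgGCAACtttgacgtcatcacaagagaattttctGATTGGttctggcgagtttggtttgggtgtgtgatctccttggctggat
H2-Eb1: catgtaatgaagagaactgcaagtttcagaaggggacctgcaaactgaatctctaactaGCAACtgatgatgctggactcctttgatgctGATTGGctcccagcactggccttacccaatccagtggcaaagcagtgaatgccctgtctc
H2-DMb1: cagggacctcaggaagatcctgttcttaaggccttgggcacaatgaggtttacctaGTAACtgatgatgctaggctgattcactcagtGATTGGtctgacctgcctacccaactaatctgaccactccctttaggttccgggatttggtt
Ctss: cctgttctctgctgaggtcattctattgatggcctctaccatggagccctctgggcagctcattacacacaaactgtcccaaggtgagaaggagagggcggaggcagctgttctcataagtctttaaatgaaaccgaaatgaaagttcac

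Total counts ran from 22929193 to 28240337 in HADA and from 1477431 to 22584062 in control, with the smallest total in control replicate 1. The counted length of a gene was its whole span, introns included, so that genes lying inside other genes are hard to count. Reads from outside expressed genes were gauged on 1392 olfactory and vomeronasal receptor genes, which serve smell and pheromone sensing. Their density, in CPM (counts in proportion to the library total) per kb of span, was 0.0755 to 0.193 in HADA and 0.0538 to 0.746 in control, highest in control replicate 2. Multiplied by the bases of a gene's span that no other gene covers, it gives the counts against which low genes are set below. Levels below are CPM after TMM scaling, which sets library sizes from the genes that change least, and HADA was compared with control by edgeR's quasi-likelihood test over 21991 genes. A gene counted as called when its Benjamini-Hochberg adjusted p was under 0.05 and its log2 fold change was larger than 1 in size.

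H2-Aa and H2-Ab1 encode the alpha and beta chains of I-A. H2-Aa (ENSMUSG00000036594, GRCm39 chr17:34501718-34506797, minus strand) had 1613, 1032, 1848 and 2771 CPM in HADA replicates 1 to 4, and 1314, 3.01, 263 and 919 CPM in control replicates 1 to 4. HADA libraries were mostly higher, but control replicate 1 stood above HADA replicate 2 and the groups overlapped. In mean level this was 1816 ± 723 against 625 ± 600 CPM (SD, n = 4), a log2 fold change of 1.54 (SE 1.12, edgeR adjusted p = 0.359). H2-Ab1 (ENSMUSG00000073421, chr17:34476663-34488393, plus strand) gave 351, 345, 1587 and 3011 CPM in HADA and 2797, 53.6, 298 and 1961 CPM in control. High and low libraries were present in both groups, and the means of 1324 ± 1268 and 1277 ± 1321 CPM (SD, n = 4) were close to each other (log2 fold change 0.051, SE 1.08, edgeR adjusted p = 0.978). With an SE this large, a sizeable change in either direction could not have been seen. The fold change ran from -0.68 without HADA replicate 4 to 0.88 without control replicate 1.

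H2-Eb1 (ENSMUSG00000060586, chr17:34524841-34535648, plus strand), the I-E beta chain, showed 198, 230, 588 and 573 CPM in HADA. Control replicates had 766, 2.57, 286 and 246 CPM, so that the highest and the lowest level were both in control. The log2 fold change was 0.29 (SE 1.08, edgeR adjusted p = 0.867), and it ran from -0.12 without control replicate 2 to 1.27 without control replicate 1. Its partner H2-Ea had 0 or 1 counts in the HADA libraries and 0, 34, 7 and 2 counts in control, and was left out as too low to test. Other genes cover 20.4% of the span of H2-Eb1.

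H2-DMa and H2-DMb1 encode the pair that loads peptides. H2-DMa (ENSMUSG00000037649, chr17:34338515-34358075, plus strand) stood at 73.7, 19.5, 269 and 259 CPM in HADA and at 186, 40.8, 1.33 and 219 CPM in control. H2-DMb1 (ENSMUSG00000079547, chr17:34372046-34379204, plus strand) stood at 75.8, 30.1, 180 and 297 CPM in HADA and at 112, 0.971, 187 and 66.1 CPM in control. The subunits parted in control, where replicate 2 had H2-DMa and hardly any H2-DMb1, and replicate 3 the reverse. Their log2 fold changes were 0.48 (SE 1.19, edgeR adjusted p = 0.798) for H2-DMa and 0.67 (SE 1.14, edgeR adjusted p = 0.702) for H2-DMb1. With single libraries left out they ran from 0.069 (without control replicate 3) to 1.09 (without control replicate 4) for H2-DMa and from 0.16 (without HADA replicate 4) to 1.29 (without control replicate 3) for H2-DMb1, and both turned negative with at least 10 counts in every library, at equal depth and after subtraction of the receptor gene density. Of the H2-DMa span, 26.7% is covered by other genes. H2-DMb1 has a close copy, H2-DMb2, and how reads that match both were counted is not stated in the sources used here.

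Cd74 (ENSMUSG00000024610, chr18:60936920-60945724, plus strand), the invariant chain, had the highest level per kb of exon of the 8 genes in every library. Its levels were 3329, 2638, 12694 and 16722 CPM in HADA and 10334, 143, 1501 and 3920 CPM in control. HADA replicates 3 and 4 were above all control libraries, and HADA replicates 1 and 2 were below control replicates 1 and 4. The log2 fold change was 1.15 (SE 1.02, edgeR adjusted p = 0.449). It was 2.36 without control replicate 1, 0.75 without control replicate 2 and 0.71 without HADA replicate 4.

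Ctss (ENSMUSG00000038642, chr3:95434097-95463714, plus strand), the protease that trims the invariant chain, had the largest fold change of the 8. HADA libraries held 774, 920, 1164 and 854 CPM, within a narrow range, and control libraries held 644, 44.2, 157 and 157 CPM. Every HADA library was above every control library, which held for 9.13% of the 21991 genes, and the reverse held for 5.7%. The means were 928 ± 168 and 251 ± 268 CPM (SD, n = 4). The log2 fold change of 1.89 (SE 0.82, edgeR adjusted p = 0.170) fell short of the threshold. Whether the groups separated depended on the scaling. As CPM of the total counts, without TMM, control replicate 1 had 702, above the lowest HADA library at 534, whereas with DESeq2's size factors the groups stayed apart.

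Ciita (ENSMUSG00000022504, chr16:10297923-10346282, plus strand) could hardly be read from this table. The span of Dexi covers 53.5% of its own and other genes cover 92.5% of its exon bases, which left 456 of 6071 exon bases to count on. It had 10, 90, 12 and 7 counts in HADA and 6, 56, 57 and 16 counts in control. These were 0.0831 to 0.903 of the counts that the receptor gene density gives for its 22472 uncovered bases, except in control replicate 1, where the 6 counts were 3.36 times that amount. The log2 fold change of -0.53 (SE 0.80, edgeR adjusted p = 0.668) rests on these few counts.

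**Figure D1:**
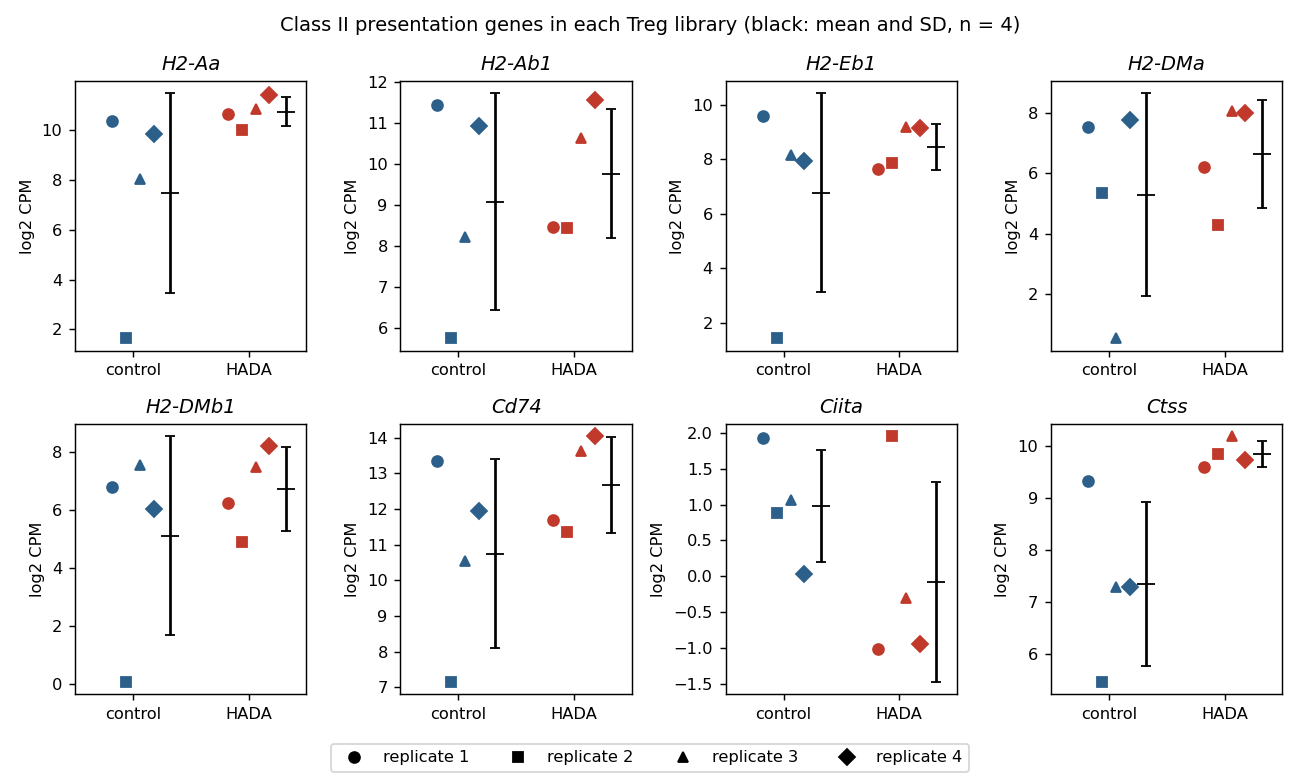
Levels of the 8 genes in each library, as log2 CPM after TMM scaling with a prior count of 2, for control (blue) and HADA (red), with symbols for the replicate number and the mean and SD of each group in black (n = 4). Ctss is the gene in which all 4 HADA libraries lie above all 4 control libraries, and control replicate 2 is the lowest library for H2-Aa, H2-Ab1, H2-Eb1, H2-DMb1, Cd74 and Ctss.

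Control replicate 2 carried much of the spread. Its counts for H2-Aa, H2-Eb1 and H2-DMb1 were 1.75, 0.884 and 0.402 times the amount that the receptor gene density gives for the uncovered bases of their spans, so these genes were at or near the level of reads from outside expressed genes. In the same library H2-Ab1 was 13.5 times, H2-DMa 8.44 times and Cd74 48.6 times that amount. H2-DMa in control replicate 3 was also below it, at 0.321 times. Which class II genes were at this level thus differed between control replicates 2 and 3.

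By edgeR, 0 of the 8 genes were called higher in HADA and 0 lower, against 1.65% of the 21991 genes called higher and 0.477% called lower. At an unadjusted p below 0.05 there was 1 of the 8, Ctss, where 2647 of the 21991 genes were higher, a like share. Fold changes were positive for 7 genes and negative for Ciita, with a median log2 fold change of 0.57 beside 0.015 over all genes, and that of H2-Ab1 turned negative with DESeq2's size factors. This direction did not hold under every setting. The median over the 7 genes that could be tested was -0.13 with at least 10 counts in every library, -0.16 at equal depth and -0.27 with the receptor gene density subtracted, with H2-Ab1, H2-Eb1, H2-DMa and H2-DMb1 negative in each. Under these settings the median over all genes was 0.032, 0.0010 and 1.002 in the same order. DESeq2, the tool named in the study's methods, called 1 of the 8 on the same genes, again Ctss (log2 fold change 1.83, SE 0.69, DESeq2 adjusted p = 0.0307), where it called 11.2% of all genes higher. A single library decided the call for Ctss in edgeR. Without control replicate 1 its log2 fold change was 3.08 (SE 0.67, edgeR adjusted p = 0.0154) and 15.5% of 24048 genes were called higher, and without any other single library it was not called.

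**Figure D2:**
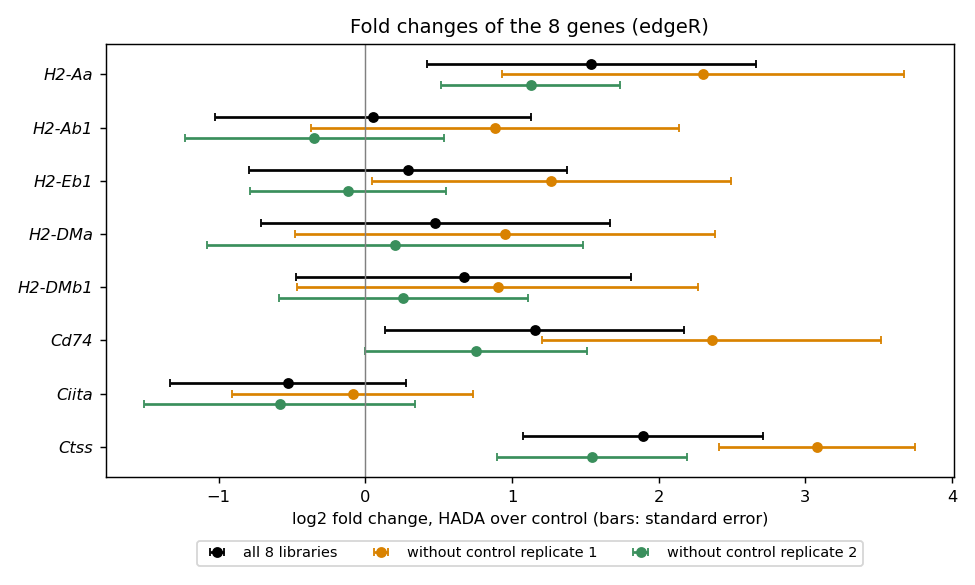
Log2 fold changes of the 8 genes, HADA over control, from edgeR with all 8 libraries (black), without control replicate 1 (orange) and without control replicate 2 (green), with standard errors as bars. Ctss moves from 1.89 to 3.08 without control replicate 1, and H2-Ab1 from 0.051 to -0.35 without control replicate 2.

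Levels between genes were compared as CPM per kb of exon that no other gene covers. In HADA the order was Cd74 with 6327 ± 4987, H2-Aa with 1610 ± 641, H2-Ab1 with 1092 ± 1046, Ctss with 685 ± 124, H2-Eb1 with 267 ± 143, H2-DMa with 135 ± 111, H2-DMb1 with 104 ± 84.6 and Ciita with 2.90 ± 3.59 CPM per kb (SD, n = 4). In control the order differed in that H2-Ab1 (1054 ± 1090) came before H2-Aa (554 ± 532), and H2-Eb1 (219 ± 215) before Ctss (185 ± 198 CPM per kb). The ranges over libraries of H2-Aa and H2-Ab1, and of H2-DMa and H2-DMb1, overlapped in both groups, so that their order is within the spread between libraries, though within a library they could differ clearly. H2-Eb1 and Ctss ranges overlapped in control and not in HADA, where Ctss ran from 572 to 859 and H2-Eb1 from 133 to 395 CPM per kb.

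A ratio of levels within a library does not depend on how libraries are scaled. The ratio of H2-Ab1 to H2-Aa, per kb of exon, was 0.203, 0.311, 0.799 and 1.01 in HADA replicates 1 to 4 and 1.98, 16.6, 1.05 and 1.99 in control replicates 1 to 4. All 4 HADA libraries were below all 4 control libraries, by a small margin between HADA replicate 4 and control replicate 3. The value of 16.6 has an H2-Aa level close to that of reads from outside expressed genes in its denominator. Cd74 to H2-Ab1 was higher in every HADA library, with 8.22, 6.63, 6.94 and 4.81 against 3.20, 2.31, 4.37 and 1.73 in control. Cd74 to H2-Aa overlapped between the groups, with 1.67, 2.06, 5.54 and 4.87 in HADA and 6.35, 38.3, 4.60 and 3.44 in control. H2-DMb1 to H2-DMa lay between 0.550 and 1.27 in HADA and between 0.0195 and 116 in control. Which of these 4 ratios to describe was settled after the values were seen, and no test was made. For comparison, 38671615 pairs were formed from 8795 genes with a mean log2 CPM of at least 3 and counts in every library. Of these pairs, 11.6% had a ratio that separated the groups in either direction.

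**Figure D3:**
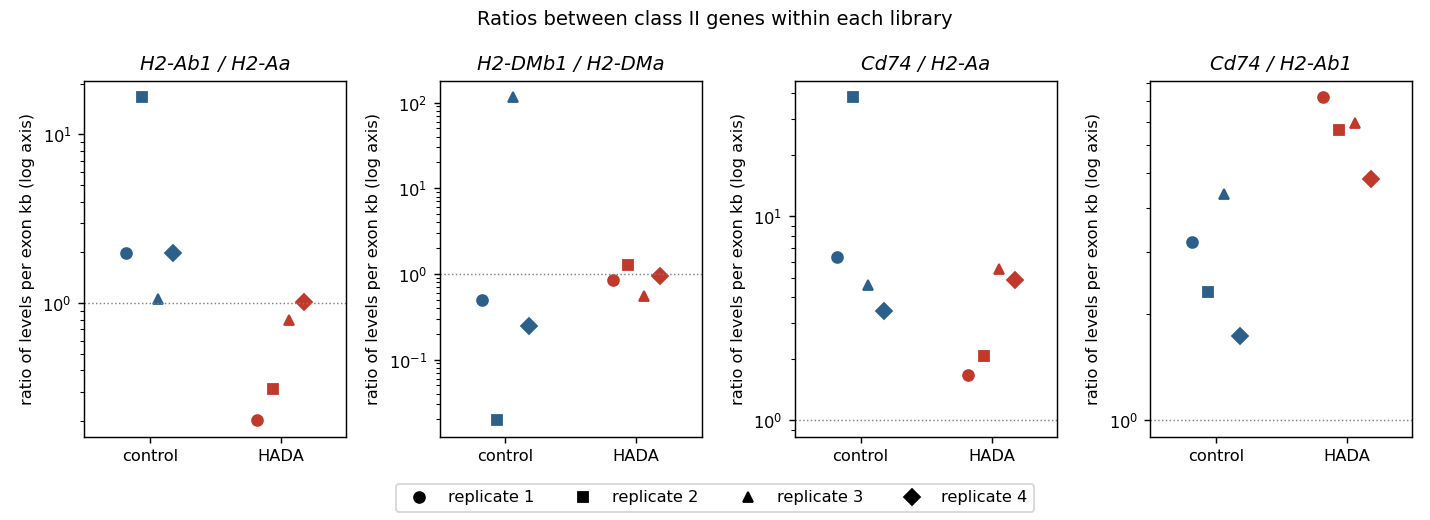
Ratios of levels per kb of exon between class II genes within each library, on log axes, for control (blue) and HADA (red), with a dotted line at a ratio of 1. H2-Ab1 to H2-Aa is 1.01 or less in HADA and 1.05 or more in control, and Cd74 to H2-Ab1 is 4.81 or more in HADA and 4.37 or less in control.

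Markers of cells that make class II molecules were present in the sorted Tregs, and those of B cells ranked the libraries as class II chains did. In a sum over bulk RNA, fewer cells of a type and less RNA per cell cannot be told apart. The 5 class II chains summed to 2311, 1656, 4473 and 6912 CPM in HADA and to 5175, 101, 1036 and 3411 CPM in control. The 10 B cell markers, of which 9 had counts, summed to 2657, 2376, 6522 and 7857 CPM in HADA and to 6614, 278, 1492 and 3493 CPM in control. The order of the 8 libraries was the same in both sums, from HADA replicate 4 down to control replicate 2. Ms4a1, which encodes the B cell antigen CD20, was at 0 everywhere and its span is fully covered by another gene. Of the 9 B cell markers tested, 9 had positive fold changes, with a median of 0.60, and 0 were called by edgeR. The shift was larger for T cell markers, with 7 of 8 positive and a median of 1.60. For the 4 Treg markers tested, 4 were positive with a median of 2.69, and edgeR called 0 in both lists. The part of B cell RNA in the class II levels was not tested.

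Monocyte and macrophage markers, 10 genes, summed to 1365 to 4000 CPM in HADA and 164 to 2651 CPM in control, and did not rank the libraries as class II did. Itgam could hardly be counted, with 2 counts in HADA replicate 1, 0 elsewhere and 99.9% of its span covered by another gene. Lyz2 made up much of the sum, with means of 1663 CPM in HADA and 705 CPM in control. Of the 9 markers tested, 5 fold changes were positive and 4 negative. Dendritic cell markers summed to less, at 65.6 to 226 CPM in HADA and 21.2 to 86.4 CPM in control over 10 genes. Their fold changes were mixed, 5 positive and 5 negative, with a median log2 fold change of 0.0037. Xcr1, on 2 to 115 counts, was below control in every HADA library (log2 fold change -2.21, SE 0.61, edgeR adjusted p = 0.0787). Flt3, at 257 counts in control replicate 2, was below what the receptor gene density gives for its 68813 uncovered bases. T cell markers, 8 of 8 with counts, ran from 2301 to 7727 CPM in HADA and from 180 to 3431 CPM in control. They ranked the libraries as class II chains did except for control replicate 1, which stood lower here, at 2621 CPM. Treg markers, 4 of 6 with counts, were 734 to 2618 CPM in HADA and 227 to 648 CPM in control, and their defining marker Foxp3 was at 0 in all libraries, with its span fully covered by other genes. Erythroid markers, 4 of 5 with counts, went the other way, from 144 to 2806 CPM in HADA and from 1023 to 28265 CPM in control. Mitochondrial genes took 5.02% to 7.59% of counts in HADA and 0.636% to 3.81% in control. What these differences contribute to the class II values was not tested.

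**Figure D4:**
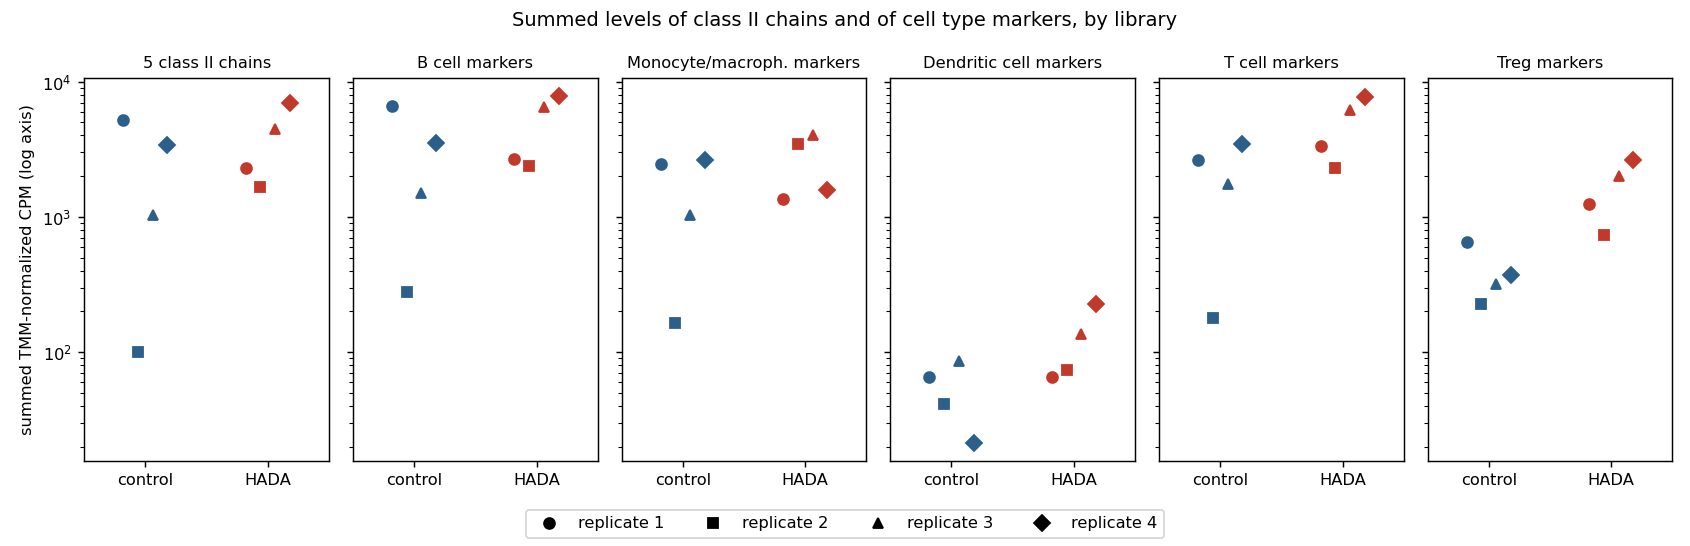
Summed CPM after TMM scaling of the 5 class II chains and of markers of B cells, monocytes or macrophages, dendritic cells, T cells and Tregs in each library, on a common log axis, for control (blue) and HADA (red). Class II chains and B cell markers are both lowest in control replicate 2, at 101 and 278 CPM, and both highest in HADA replicate 4, at 6912 and 7857 CPM. T cell and Treg markers have the same extremes, from 180 and 227 CPM in control replicate 2 to 7727 and 2618 CPM in HADA replicate 4.

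The mean log2 CPM of the 8 genes was 7.43, 7.33, 8.72 and 8.90 in HADA and 8.79, 3.47, 6.42 and 7.73 in control. Among 8835 genes with a mean log2 CPM of at least 3, the genes most like this profile over the 8 libraries were Cd79b (Pearson r = 0.993), Tmed2 (0.992), Sf3b1 (0.990), Chmp2a (0.988) and Ubb (0.988). Cd79b encodes a part of the B cell receptor, Tmed2 a cargo receptor of the early secretory route, Sf3b1 a splicing factor, Chmp2a a subunit of the membrane-cutting ESCRT machinery, and Ubb ubiquitin. The low value of control replicate 2 is common to all of these profiles, which also share library depth and scaling.

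Beyond the 8 genes, a list of 38 other genes of the class II pathway was described, of which 33 passed the filter on low counts. By edgeR, 0 of the 33 were called higher and 0 lower, with 3 higher at an unadjusted p below 0.05, and DESeq2 called 3 higher (Cst3, Nfya and Mif), a share no larger than the 11.2% it called over all genes. Fold changes were positive for 30 genes and negative for Ifi30, Ctsk and Rfxank, with a median log2 fold change of 1.05 beside 0.015 over all genes. The pathway median was 1.77 without control replicate 1, 0.54 with at least 10 counts in every library and 0.37 at equal depth, and with the receptor gene density subtracted it was 0.63, below the 1.002 of all genes. After TMM scaling, HADA libraries were all above the control libraries for 3 of the 33 genes, Cst3, Nfya and Creb1, a share close to the 9.13% of all genes. Not tested were H2-Ea, H2-Oa, Ctsd, Rfx5 and Lag3, of which H2-Oa had no counts and lies inside the span of BC051537. Nfya, Creb1 and Mif are described because of their values here.

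Among the other class II chains, H2-Ob, the beta chain of the H2-DM inhibitor H2-O, had 224, 240, 486 and 795 CPM in HADA and 500, 111, 145 and 54.2 CPM in control (log2 fold change 1.11, SE 0.83, edgeR adjusted p = 0.371). H2-DMb2, the near copy of H2-DMb1, had 59.3, 48.3, 691 and 1005 CPM in HADA and 544, 2.54, 401 and 124 CPM in control (log2 fold change 0.75, SE 1.27, edgeR adjusted p = 0.700). Both overlapped between the groups, and both were high in HADA replicates 3 and 4 and in control replicate 1, as Cd74 was.

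Of the 9 processing genes tested, 7 had positive and 2 negative fold changes. Cst3 encodes cystatin C, an inhibitor of cysteine cathepsins such as cathepsin S. It had 711, 817, 513 and 415 CPM in HADA and 372, 26.3, 41.8 and 152 CPM in control, with a log2 fold change of 2.05 (SE 0.88, edgeR adjusted p = 0.167). The protease cathepsin B (Ctsb) had means of 412 ± 205 and 174 ± 182 CPM (SD, n = 4) with overlapping groups. After TMM scaling, Ctss and its inhibitor Cst3 were thus both above control in all HADA libraries, and neither passed the adjusted threshold. As for Ctss, the separation of Cst3 was lost when counts were taken as a share of the library total. Control replicate 1 had 599 Cst3 counts of 1477431, a larger share than the 6898 of 26590026 in HADA replicate 4.

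Among 15 regulators tested, 14 fold changes were positive. Nfya, a subunit of the factor NF-Y that binds the Y box, had 29.4, 30.6, 66.6 and 22.3 CPM in HADA and 11.8, 5.51, 2.38 and 4.29 CPM in control, with a log2 fold change of 2.66 (SE 0.86, edgeR adjusted p = 0.106). Creb1, a factor that binds the X2 part of the X box, had 264, 243, 527 and 273 CPM in HADA and 139, 24.2, 20.2 and 202 CPM in control (log2 fold change 1.76, SE 0.87, edgeR adjusted p = 0.207). The groups did not overlap for Nfya or Creb1, and neither was called. Nfya had 176, 68 and 74 counts in control replicates 2 to 4, below what the receptor gene density gives for its 23022 uncovered bases. Creb1 had 774 and 578 counts in control replicates 2 and 3, about what that density gives for its 71904 bases. HADA libraries were above that amount for both genes. Their fold changes and separation thus rest in part on control libraries at the level of reads from outside expressed genes. Jak1 and Ifngr1, which carry the interferon gamma signal that induces Ciita, were the most abundant regulators. Their means were 809 ± 412 against 375 ± 262 CPM for Jak1 and 555 ± 219 against 217 ± 205 CPM for Ifngr1 (SD, n = 4), with overlapping groups.

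For turnover, Marchf1, a ubiquitin ligase that removes class II from the cell surface, had a log2 fold change of 0.33 (SE 0.62, edgeR adjusted p = 0.729), and Cd83, which opposes it, one of 2.11 (SE 1.26, edgeR adjusted p = 0.273). The level of Marchf1 rests on a long span with 846836 uncovered bases. In control replicates 2 to 4 its 9164, 6334 and 2754 counts were close to what the receptor gene density gives for those bases. The other libraries were above that amount. Cd4, which binds class II, had 165 ± 60.0 CPM in HADA and 107 ± 119 CPM in control (SD, n = 4). Cd44, which works with Cd74 as a receptor, had 440 ± 243 and 237 ± 156 CPM. Mif, the ligand of cell surface Cd74, gave 164, 20.6, 155 and 154 CPM in HADA and 31.7, 0.0626, 0.489 and 0.116 CPM in control. HADA replicate 2 lay below control replicate 1, and the log2 fold change of 4.01 had an SE of 1.74 (edgeR adjusted p = 0.170).

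**Figure D5:**
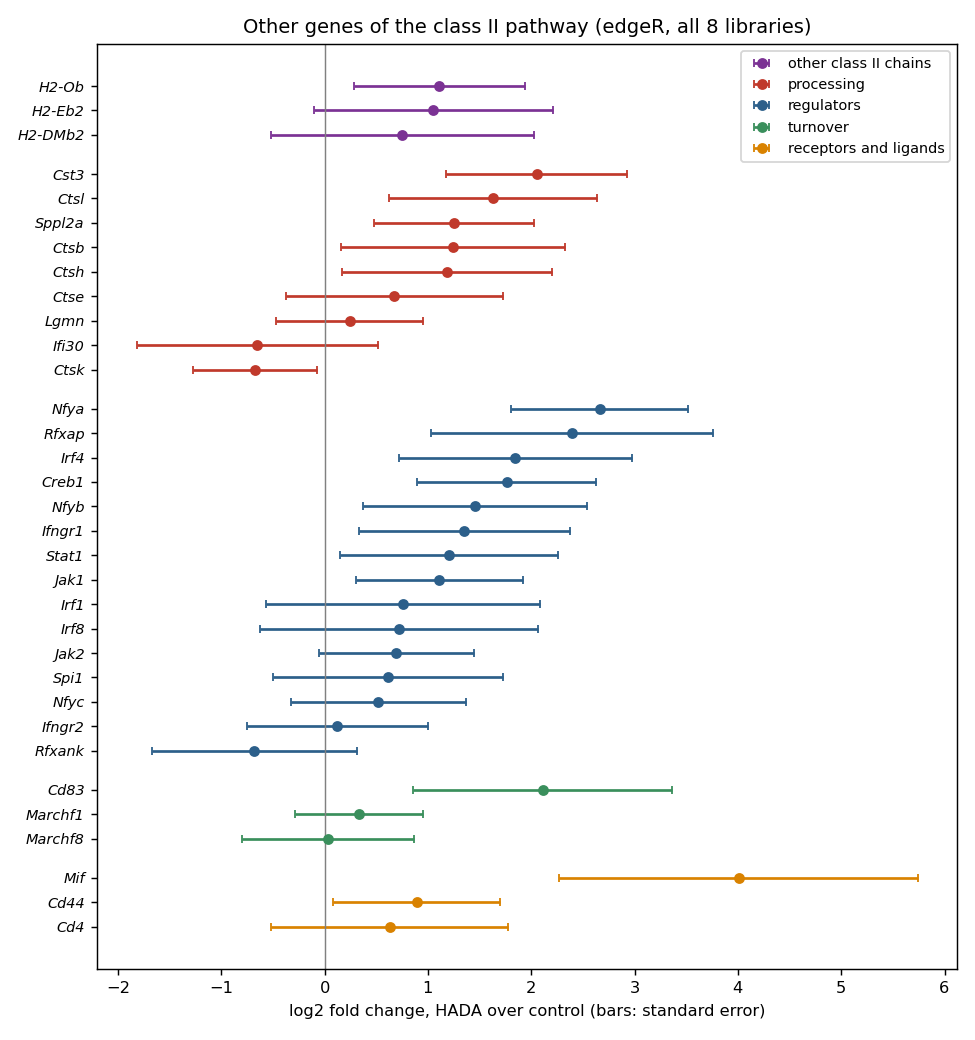
Log2 fold changes of the 33 tested pathway genes, HADA over control, from edgeR with all 8 libraries, with standard errors as bars and colours for the subgroup. Positive values are seen for 30 genes, from 0.033 to 4.01, and 0 genes were called.

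Without control replicate 1, edgeR called 10 of 34 tested pathway genes higher, namely H2-Ob, Ctsl, Sppl2a, Cst3, Rfxap, Nfya, Irf4, Irf8, Cd83 and Mif, and 0 lower. In that fit 15.5% of all genes were called higher and 19.7% lower. Without any other single library edgeR called 0 pathway genes.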

How the data were processed

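RNA-seq counts from 4 HADA and 4 control Treg libraries were used. Per the study's methods, reads passed FastQC and Trimmomatic, STAR placed them on GRCm39, and the raw featureCounts output for 56980 genes was deposited as counts by the authors. Strand and multi-mapping settings are not given in the sources used here. GENCODE vM39 named 56236 identifiers. The members and lists were chosen with earlier results of these data known. Named in the text are the 8 genes, pathway genes called by edgeR, the 2 most abundant per subgroup and the 5 genes of most similar profile, and others were named after their values were seen.

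Counts were tested with edgeR 4.0.16 (TMM, filterByExpr, quasi-likelihood, prior count 2) in R 4.3.3, without covariates, over 21991 genes, and with DESeq2 1.42.0 on the same genes. Groups and replicate numbers came from the labels. Alternatives were other size factors, other count filters, equal depth, subtraction of the receptor gene density, a replicate block and leaving out each library. The fits were also run on simulated data, and no outcome of that run is used in the text. Other tables were made with Python 3.11.15. No 2 libraries had identical counts.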

Additional observations from a re-analysis of the deposited data

How the results depend on the processing

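The count of the 8 genes called higher was 1 with DESeq2 (Ctss), 0 to 1 when single libraries were left out in edgeR, 2 with DESeq2 without control replicate 1 (Ctss and Cd74, the latter with a log2 fold change of 2.46 and a DESeq2 adjusted p of 0.045) and 1 without control replicates 1 and 2 (Ctss, 2.68, edgeR adjusted p = 0.0247). For the pathway list these counts were 3, 0 to 10, 13 and 5. In the last 2 of these fits 26.1% and 7.5% of all genes were called higher. The fits without control replicate 1 by DESeq2 and without control replicates 1 and 2 were chosen after seeing the data. The log2 fold change of H2-Ab1 turned negative with DESeq2 (-0.0876), with its size factors in edgeR (-0.0875), with at least 10 counts in every library (-0.44), at equal depth (-0.53) and with the receptor gene density subtracted (-0.53), and ran from -0.68 to 0.88 with single libraries left out. H2-Eb1 turned negative under the last 3 of these settings (-0.19, -0.30 and -0.27) and ran from -0.12 to 1.27 with single libraries left out. Under the same 3 settings H2-DMa gave -0.15, -0.21 and -0.41 and H2-DMb1 -0.13, -0.16 and -0.32, and Ciita gave 0.0368 with DESeq2 without control replicate 1. The cause was not tested. The median over all genes was 1.002 after the subtraction, -0.20 with DESeq2 and -0.37 without a filter. H2-Aa, Cd74 and Ctss kept a positive sign under every alternative run. Same-numbered libraries did not deviate together (r = -0.21, 0.25, -0.081 and -0.0032), so the numbers were not taken to pair them, and with the replicate number as a block 0 of the 8 genes and 0 pathway genes were called (Ctss 2.53, edgeR adjusted p = 0.175). The total of 1477431 counts in control replicate 1 limits what it shows of low genes such as Ciita.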
